A study of Drosophila melanogaster with 2 samples.

Results

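The 92 nuclear respiratory chain genes described here were chosen by symbol from the 13968 protein-coding genes on the chromosome arms of Drosophila melanogaster. They are the genes whose symbol begins Nduf, ND-, Sdh, UQCR, COX or ATPsyn, with Cyt-c1 and RFeSP added. The rule uses no measured value, but it was set with earlier results of these data known. By name, 67 are core subunits of complexes I to V, 24 are paralogues that carry the symbol of a subunit followed by L, and 1, Sdhaf3, is an assembly factor. No member had a T suffix. The samples were whole embryos of the hbn-GFP strain, 0 to 18 h old, which express a fusion of eGFP to hbn, the paired-like homeodomain factor homeobrain. Both replicates carry the fusion and were precipitated through the GFP, and the series has no second genotype, age or treatment. The question was therefore at which of these genes the tagged protein gave a peak in chromatin immunoprecipitation followed by sequencing. In chromatin from whole embryos, occupancy in a small share of cells and weak occupancy in many cells cannot be told apart (the control the labels point to was not analysed here).

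The respiratory chain sits in the inner mitochondrial membrane. Complexes I and II pass electrons from NADH and succinate to ubiquinone, complex III passes them on to cytochrome c, complex IV passes them to oxygen, and complex V, the ATP synthase, uses the proton gradient that complexes I, III and IV build. A few subunits are encoded by the mitochondrial genome and most by nuclear genes, so that the cell has to supply many nuclear products together. In Drosophila, many subunit genes have a duplicate with an L in its name, and a number of these duplicates are known to be expressed mainly in testis.

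The set of peaks called conservative, which compares both replicates with each other, had 3592 entries on the arms, and each entry has a summit and a deposited signal. The scale of the signal is not stated, its median over these entries was 118.7, and read depth is unknown. A gene was counted as having a summit when a summit lay within 500 bp of any of its own annotated transcript starts, and where it had several the strongest is given. The replicate values are the signals of the matching entries in each replicate's own list. A ranked entry is one in the ranked list of both replicates, which also holds peaks that did not enter the conservative set. With 1 group of 2 replicates there is no contrast to test, so counts are set beside the same count over all protein-coding genes, and the Wilson 95% intervals cover the number of genes only.

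The DNA at or near the strongest summits is shown first, with 1 or a few genes for each complex, as examples and not as a comparison of the complexes. Each stretch has 60 bases, 5′ to 3′ on the strand of the gene, from the RefSeq copy of the Release 6 assembly (dm6). Capitals mark TATCG on either strand, which reads CGATA on the opposite one. It is the start of TATCGA, the core of the site of the promoter factor Dref, and TATCGATA is the full palindromic centre of that site. The first set holds the strongest member of complexes I to IV and the second strongest of complex V, with the coordinates after each name. ATPsynF, the strongest of complex V, is not printed here and has TATCGA within 100 bp of its summit.
ND-SGDH (complex I, chr3L:12138725-12138784, minus strand): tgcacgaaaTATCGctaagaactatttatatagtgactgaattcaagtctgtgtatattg
SdhD (complex II, chr3R:23760525-23760584, minus strand): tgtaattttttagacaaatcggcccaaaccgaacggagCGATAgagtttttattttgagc
UQCR-14 (complex III, chrX:16286273-16286332, plus strand): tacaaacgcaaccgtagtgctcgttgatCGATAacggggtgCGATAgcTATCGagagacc
COX7A (complex IV, chr3R:8341013-8341072, minus strand): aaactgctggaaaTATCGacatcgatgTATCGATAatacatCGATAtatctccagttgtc
ATPsynCF6 (complex V, chr3R:23356073-23356132, minus strand): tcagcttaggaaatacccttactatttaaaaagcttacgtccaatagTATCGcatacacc
UQCR-14 and COX7A each held 4 matches to TATCGA within 100 bp of the summit, where TATCGATA counts as 2 overlapping matches. ND-SGDH, SdhD and ATPsynCF6 held none, although each had TATCG in the stretch shown. With ATPsynF in place of ATPsynCF6, 3 of the 5 strongest members had TATCGA.

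The strongest complex III and IV summits without TATCGA had no TATCG in the stretch either, although both had TATCG within 100 bp of the summit.
Cyt-c1 (complex III, chr3L:5360155-5360214, plus strand): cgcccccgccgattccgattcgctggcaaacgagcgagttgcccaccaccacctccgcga
COX7B (complex IV, chr3L:17425283-17425342, plus strand): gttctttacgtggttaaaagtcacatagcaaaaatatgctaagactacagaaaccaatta
A further set, chosen after the values were seen, shows the full TATCGATA at members of the other complexes. The stretches of ND-ASHI and ATPsynE lie beside their summits and do not hold them.
ND-B14.5A (complex I, chrX:2172430-2172489, plus strand): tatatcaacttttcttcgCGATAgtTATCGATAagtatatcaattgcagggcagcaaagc
ND-ASHI (complex I, chrX:6678174-6678233, minus strand): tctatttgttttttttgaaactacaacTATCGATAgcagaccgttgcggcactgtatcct
SdhC (complex II, chr3R:11210134-11210193, minus strand): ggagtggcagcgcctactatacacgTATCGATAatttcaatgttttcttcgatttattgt
ATPsynE (complex V, chr3R:14327023-14327082, plus strand): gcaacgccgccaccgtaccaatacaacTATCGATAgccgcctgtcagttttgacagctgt
ND-ASHI is of interest because its summit lies between a start of its own and that of Fum1, the fumarase of the tricarboxylic acid cycle.

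A larger share of core subunit genes than of all genes had a summit at a start, and no L-suffixed paralogue had one. Of the 67 core genes, 36 had a summit (53.7%, interval 41.9 to 65.1), against 26.5% of all protein-coding genes. Of the 24 paralogues, 0 had one (interval 0 to 13.8%), and Sdhaf3, which is known to help assemble complex II, had none. Over all 92 members the count was 36 (39.1%, interval 29.8 to 49.3). Complex II, succinate dehydrogenase, had a summit at 4 of 4 core genes and complex IV, cytochrome c oxidase, at 7 of 8. Complex I, the NADH dehydrogenase, had 18 of 36, complex III, the cytochrome bc1 complex, 3 of 8 and complex V 4 of 11. The intervals of the smaller complexes are wide and overlap, from 52.9 to 97.8% at complex IV, 13.7 to 69.4% at complex III and 15.2 to 64.6% at complex V, so the order of the complexes is not resolved. In replicate 2's own set the counts were lower, at 11 of 36 for complex I, 1 of 4 for II, 1 of 8 for III, 5 of 8 for IV and 4 of 11 for V, and in replicate 1's own set they were 15, 2, 2, 6 and 5.

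**Figure D1:**
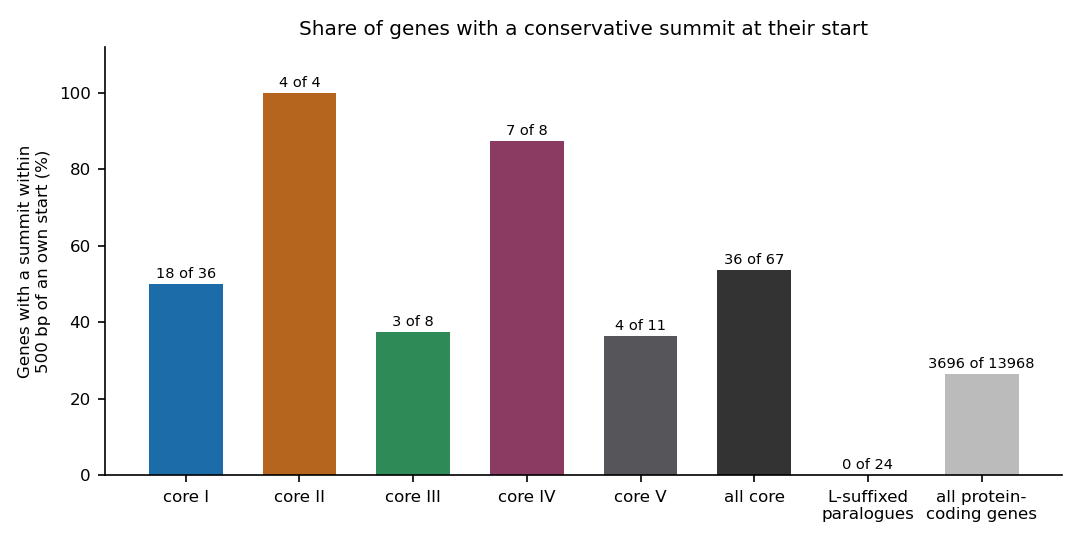
Share of genes (%) with a conservative summit within 500 bp of an own start, for the core subunits of complexes I to V, all core subunits, the L-suffixed paralogues and all protein-coding genes; the numbers over the bars are genes with a summit and genes in the group. Complexes II (4 of 4) and IV (7 of 8) stand highest, and the paralogues have 0 of 24.

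The share depends on how many starts a gene has and on its neighbours, and both differed between core genes and paralogues. A single annotated start was found at 50.7% of core genes and 87.5% of paralogues, against 73.5% of all genes. Of the core genes with 1 start, 16 of 34 had a summit (47.1%), against 22.4% of all genes with 1 start. With 2 starts the count was 17 of 29 (58.6%), against 34.9%, and with 3 or more it was 3 of 4, against 44.4%. Among the paralogues, 21 had 1 start (interval 0 to 15.5%) and 3 had more (0 to 56.1%), and neither class had a summit.

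A head-to-head neighbour, here a gene on the opposite strand whose start lies within 1000 bp so that both are read away from a shared promoter region, was found at 61.2% of core genes and 16.7% of paralogues, against 36.2% of all genes. Among core genes that have such a neighbour, 22 of 41 had a summit (53.7%, interval 38.7 to 67.9), which is not resolved from the 46.4% of all such genes. Among core genes without one, 14 of 26 had a summit (53.8%, interval 35.5 to 71.2), against 15.2% of all genes without one. The core genes had summits at nearly the same share with and without a head-to-head neighbour, while the shares over all genes lay far apart. Of the paralogues, 4 had such a neighbour and 20 did not, and neither class had a summit. The interval for the 20, 0 to 16.1%, includes the 15.2% of all genes without such a neighbour. That for the 4, 0 to 49.0%, includes the 46.4% of all genes with one. The part that number of starts and neighbours play in the gap between core genes and paralogues was not tested.

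**Figure D2:**
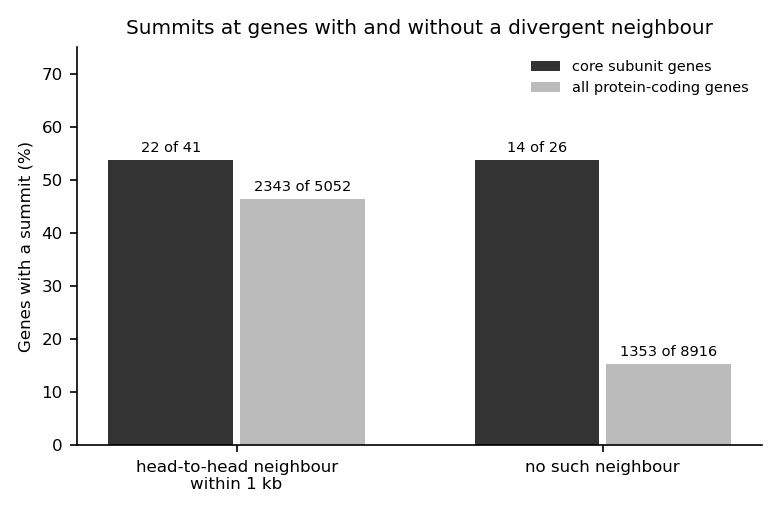
Share of genes (%) with a summit, for core subunit genes (dark) and all protein-coding genes (grey), split by whether a gene on the opposite strand starts within 1 kb. The core genes are at 22 of 41 and 14 of 26, and all genes at 2343 of 5052 and 1353 of 8916.

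Complex I has a catalytic core, which carries the flavin and the iron-sulphur clusters, and many accessory subunits around it. ND-SGDH, an accessory subunit of the membrane arm, had the strongest summit of the complex, with a signal of 335.5 and 197.0 and 119.3 in replicates 1 and 2. The summit lay 171 bp before its start and closer, at 113 bp, to that of RhoGAP68F. ND-24, which holds an iron-sulphur cluster near the entry of electrons, had a signal of 307.4 (180.4 and 132.6 in the replicates) with the summit 98 bp inside the gene. ND-B14.5A, an accessory subunit, had 294.0 (176.6 and 120.7), 39 bp before the start. ND-ASHI, another accessory subunit of the membrane arm, had 280.7 (179.1 and 107.2), in an intron, 5 bp before the nearest of its 3 starts and 159 bp from the Fum1 start. All 4 of these stood far above ND-B18, the weakest with a summit, which had 59.0 (32.34 and 33.06).

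The median over the 18 complex I genes with a summit was 141.7. By a grouping made after the values were seen, the 7 nuclear genes of the catalytic core had summits at 2 (28.6%), ND-24 and ND-23, and the accessory subunits at 16 of 29 (55.2%), against 26.5% of all genes. The other catalytic genes, ND-75, ND-51, ND-49, ND-30 and ND-20, had none. ND-MLRQ, placed in complex I by its symbol, is the counterpart of a mammalian protein now assigned to complex IV, and had a signal of 108.4. NdufV3, an accessory subunit of the flavoprotein part, had no summit and the lowest ranked entry of the core genes that had an entry, 14.95.

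The 4 complex II genes lay in a narrow range. SdhD, a membrane anchor, had a signal of 110.8 (61.02 and 39.76 in the replicates), and SdhC, the other anchor, had 101.7 (54.08 and 36.89). SdhB, the iron-sulphur subunit, had 99.34 (57.38 and 35.55), and SdhA, the flavoprotein that oxidises succinate, had 88.32 (51.42 and 39.43). All 4 lay below the median signal of the conservative set. The SdhC summit lay 312 bp before its start and closer to that of Tctp, at 86 bp. Its count of 4 rests on the set that compares both replicates, since neither replicate's own set held more than 2 of the genes.

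Complex III had both the strongest and the weakest core summit. UQCR-14, the counterpart of the subunit that binds ubiquinone in mammals, had a signal of 462.2 (287.6 and 167.4 in the replicates), rank 109 of all conservative entries, 3 bp inside the gene. Cyt-c1, the haem protein that hands electrons to cytochrome c, had 111.4 (83.19 and 31.74), 26 bp before its start. UQCR-C2, one of the large core proteins, had 43.39 (34.61 and 35.32), 365 bp before its nearest start and in a coding exon of another gene. A slightly stronger ranked entry near UQCR-C2, of 45.05, did not pass the threshold. RFeSP, the Rieske iron-sulphur protein, UQCR-C1, UQCR-Q, UQCR-11 and UQCR-6.4 had no summit.

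At the complex IV genes with COX symbols the summits fell into a strong and a weaker group. COX7A had a signal of 408.5 (288.6 and 121.9 in the replicates), 2 bp before its start. COX7B had 352.0 (230.4 and 120.1), 164 bp before its start and 96 bp from that of Sec3. COX6B had 330.7 (211.5 and 105.6), equally far, at 37 bp, from its own start and that of CG18809. Among these genes no value lay between these 3 and COX7C, at 130.5 (78.98 and 65.06). Outside the symbol rule, cype (COX6C) lay between, at 180.3, and levy (COX6A) lay above all of them, at 598.8. The COX7C summit was 241 bp inside the gene and closer to the start of oys, at 25 bp. COX8 had 124.1, nearer to the start of VhaM9.7-b, and a second summit of 89.25 at 25 bp before its own start. COX4 had 120.6 (107.4 and 36.14) and COX5A, the weakest, 79.25 (32.44 and 43.99) in a coding exon. COX5B was the core gene of complex IV without a summit, with a ranked entry of 80.87.

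At the complex V genes with ATPsyn symbols, summits were at 2 membrane subunits, the coupling factor and the rotating shaft. Outside the symbol rule, blw, the alpha subunit, had one of 197.4. ATPsynF, a membrane subunit, had a signal of 379.7 (270.4 and 117.9 in the replicates), 68 bp before its start and 58 bp from that of CG3548. ATPsynCF6, coupling factor 6 of the stator, had 278.5 (161.3 and 119.9), 39 bp before its start. ATPsyngamma, the rotating shaft, had 142.3 (84.93 and 65.92), 37 bp from the start of yata, and ATPsynE, the other membrane subunit, had 90.67 (69.22 and 51.6). ATPsynbeta, the catalytic subunit, and ATPsynG had neither a summit nor an entry in the ranked list of both replicates. The replicates' own ranked lists had weak entries, of 12.79 and 5.615 at ATPsynG and of 7.604 at ATPsynbeta in replicate 1's alone. ATPsynB, ATPsynC, ATPsynD, ATPsynO and ATPsyndelta had ranked entries of 43.93 to 60.99 and no summit.

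**Figure D3:**
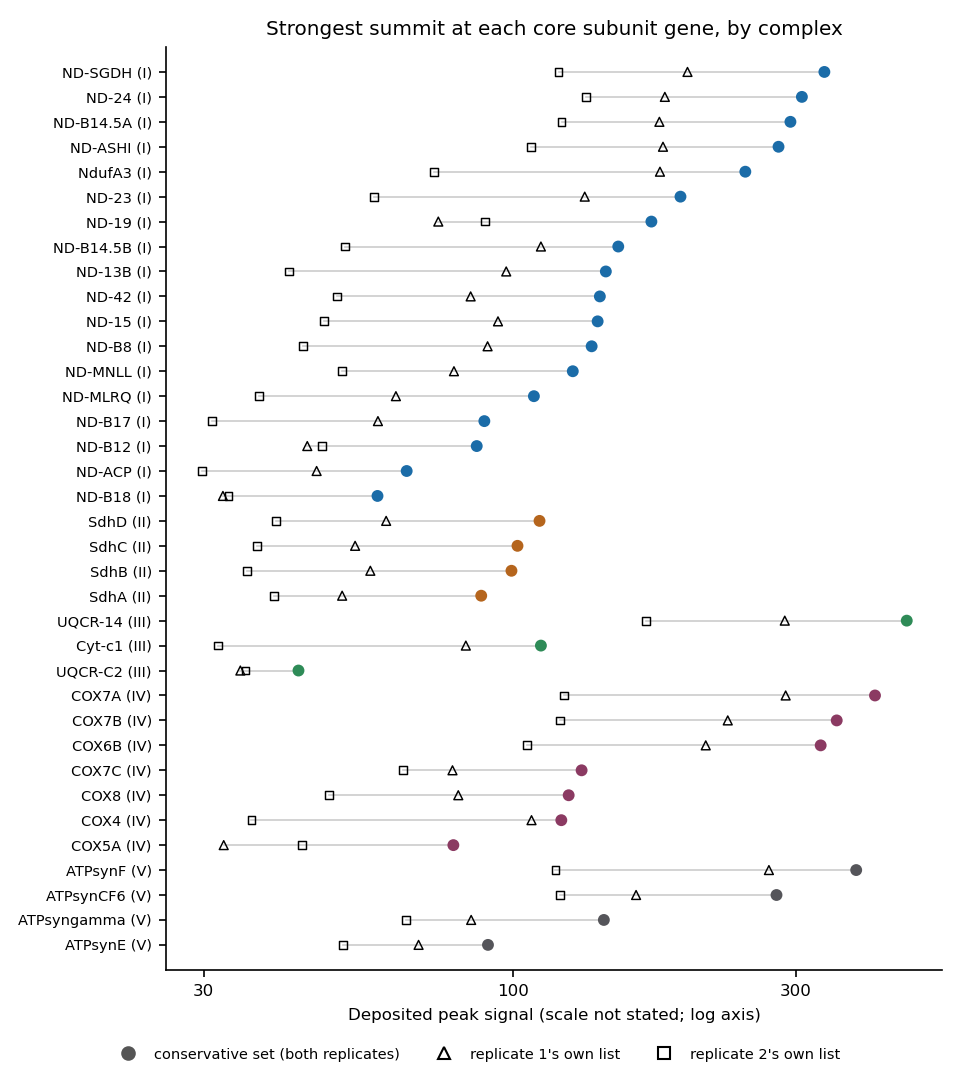
Deposited signal (log axis, scale not stated) of the strongest conservative summit at each of the 36 core genes that have one, with the complex in brackets; filled circles are the conservative set, triangles replicate 1's own list and squares replicate 2's. Signals run from 43.39 at UQCR-C2 to 462.2 at UQCR-14, and the 4 complex II genes lie between 88.32 and 110.8.

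Once present, the core summits were ordinary in strength and close to the start. Their median signal was 137.3 (quartiles 101.1 and 279.1), against 154.7 (98.66 and 252.1) over all genes with a summit. Of the 36, 11 (30.6%) were in the strongest 20% of all entries, against 27.7% over all genes with a summit. The median position was 39 bp before the start, against 60 bp, and 25 of 36 (69.4%) lay within 100 bp of it, against 60.3%. The summits lay before the start at 29 of 36 genes (80.6%), against 82.0%. By annotation 21 were intergenic, 11 in UTR exons, 2 in introns and 2 in coding exons. Summits came in pairs at 6 genes, COX8, ND-13B, ND-23, ND-B14.5A, ND-B18 and NdufA3, and at all 6 the paired entries overlapped.

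Many of these summits cannot be given to 1 gene. At 20 of 36 core genes (55.6%, against 56.5% of all genes with a summit) the start of another gene also lay within 500 bp, and at 10 (27.8%, against 27.4%) it was closer than the gene's own. When the own start had to be the closest or tied for it, counting any summit of the gene, 27 of 67 core genes kept a summit (40.3%), against 20.1% of all genes. Complex I then had 14, complex II 3, complex III 3, complex IV 5 and complex V 2. In 2 cases the neighbour is itself a mitochondrial gene: ND-ASHI shared its summit with Fum1, and ND-42 shared one of 140.1 with Cchl, the enzyme that attaches haem to cytochrome c.

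The replicates differed in how many core genes they held. In replicate 1's own set 30 of 67 core genes had a summit (44.8%), against 24.5% of all genes, and in replicate 2's own set 22 of 67 (32.8%), against 17.6%. No paralogue had one in either. Of the 36 core genes, 21 were in both sets, 7 in replicate 1's alone, SdhA in replicate 2's alone, and 7 in neither. This split was not counted over all genes, so whether it is particular to core genes is not known. The 7 in neither were COX5A, ND-ACP, ND-B12, ND-B18, ND-MLRQ, SdhB and UQCR-C2, with signals from 43.39 to 108.4. Over the 36 summits the signals ran from 32.34 to 288.6 (median 84.84) in replicate 1's list and from 29.78 to 167.4 (median 50.89) in replicate 2's. Replicate 1's value was higher at 31 of 36, against 2443 of 2618 strongest peaks of all genes with a summit. The median log2 ratio was 0.72 at the core summits, against 0.70 at those peaks.

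Most core genes without a summit still had an entry in the ranked list, below the threshold, as did most of all genes without one. Of the 31, 27 had an entry, with signals from 14.95 to 95.6 (median 45.69). Over all genes without a summit, 7034 of 10272 had an entry (median 32.32). ND-49, ND-AGGG, ATPsynG and ATPsynbeta had none (12.9% of the 31, against 31.5% of all genes without a summit). ND-49 and ATPsynbeta are the core genes on chromosome 4. UQCR-Q, a small complex III subunit, had 95.6 with a −log10 IDR of 1.51, and ND-B22 of complex I had 93.03 with 1.60, where the conservative set begins at 2.0. Both signals exceeded those of 8 core genes with a summit, since the threshold is set on the IDR and not on the signal. ND-B22 was in replicate 1's own set, as was ATPsyndelta.

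The paralogues were set beside the 21 genes they are named after, of which 12 had a summit. In 21 of 24 pairs the strongest ranked entry at the partner exceeded that at the paralogue, or the paralogue had no entry. In the other 3, ATPsynGL, ATPsynbetaL and ND-49L with their partners, neither gene had an entry. UQCR-14L, SdhCL and COX4L had no entry, against 462.2 at UQCR-14, 101.7 at SdhC and 120.6 at COX4. Replicate 2's own ranked list had one of 16.21 at UQCR-14L. ND-24L had 14.86, against 307.4 at ND-24, and ND-B14.5AL had 36.0, against 294.0 at ND-B14.5A. COX7AL and COX7AL2 had 42.05 and 48.49, against 408.5 at COX7A, and COX7CL had 8.658, against 130.5 at COX7C. SdhAL had 15.87, against 88.32 at SdhA, and SdhBL had 37.17, against 99.34 at SdhB. ATPsynCF6L had 17.5, against 278.5 at ATPsynCF6.

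Some partners go by other symbols. COX6AL had 34.33 and COX6AL2 no entry, against 598.8 at levy, which encodes the COX6A subunit. COX6CL had no entry, against 180.3 at cype, which encodes COX6C. The highest paralogue entry was 51.62, at ATPsynepsilonL, against 56.59 at sun, the epsilon subunit, which had no summit either. Of all 24 paralogues, 11 (45.8%) had no ranked entry, against 31.5% of all genes without a summit, and the median over the other 13 was 27.69, against 32.32. Expression of the paralogues was not measured here.

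**Figure D4:**
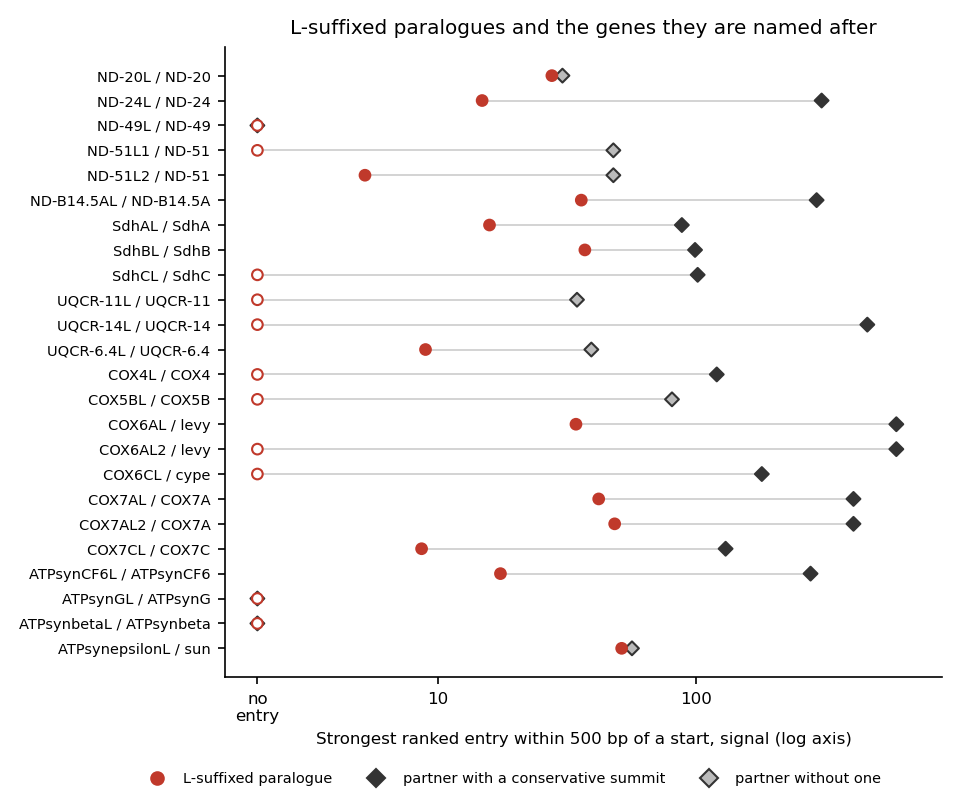
Signal (log axis) of the strongest ranked entry within 500 bp of a start, for each of the 24 L-suffixed paralogues (red circles) and the gene it is named after (diamonds, dark where that gene has a conservative summit); open symbols at the left have no entry. The paralogues lie between 5.224 and 51.62 or have no entry, and the partners reach 598.8 at levy.

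Within 100 bp, the sequence TATCGA was under a smaller share of core summits than of all promoter summits. It lay at 17 of 36 (47.2%), against 53.8% of the 3086 conservative summits at protein-coding starts, and TATCGATA at 11 (30.6%), against 24.4%. The shorter TATCG, added after the sequences above were seen, was at 29 (80.6%), against 69.4%. The 3086, the background for each motif at summits, include the core summits and are not limited to the strongest of each gene. By the strongest summit of each gene, TATCGA was at 2266 and TATCGATA at 1024 of the 3696 genes with a summit. By complex, TATCGA was at 9 of 18, 2 of 4, 1 of 3, 3 of 7 and 2 of 4 genes from I to V. The median signal was 171.2 with TATCGA (17 genes) and 124.1 without (19 genes), against 189.2 and 102.9 over all genes with a summit. TAATTA and TAATTG, core sequences of homeodomain sites, were at 5 (13.9%, against 11.9%) and 6 (16.7%, against 16.0%). The repeat GAGAG was at 7 (19.4%, against 22.7%), GATAAG at 2 (5.56%, against 14.5%), and GGTCACAC at 3 (8.33%, against 8.2%).

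CAGCTG, a form of the E-box known to bind basic helix-loop-helix factors, was under a larger share of core summits than of all promoter summits. It was within 100 bp of 13 of 36 core summits (36.1%), against 18.0% of promoter summits, whereas the general E-box CANNTG, which includes it, was at 21 (58.3%), against 61.5%. Within 50 bp CAGCTG was at 5 (13.9%, against 10.2%), and within 200 bp at 18 of the 36, against 29.2%. CANNTG was at 7 (19.4%, against 38.5%) within 50 bp and at 28 (77.8%, against 85.1%) within 200 bp. Complex I had 8 of the 13 summits with CAGCTG and complex V had 3, ATPsynCF6, ATPsynE and ATPsyngamma, and the others were SdhD and COX7A. In the ATPsynE stretch shown above CAGCTG lies close to the 3′ end, in lower case. In the promoters CAGCTG was in 10 of 36 core genes with a summit (27.8%), 9 of 31 without (29.0%) and 2 of 24 paralogues (8.33%), against 17.6% of all genes. It was singled out after the values of all 13 searched motifs were seen.

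In the promoters themselves, 250 bases before to 50 after the first annotated start, TATCGA and a second promoter sequence were spread differently over the core genes. TATCGA was in 17 of 36 core promoters with a summit (47.2%) and 5 of 31 without (16.1%), against 60.1% and 16.1% of all genes with and without a summit. GGTCACAC, known as promoter motif 1 of Drosophila core promoters, was in 16 of 67 core promoters (23.9%) and in 1 of 24 paralogue promoters (4.17%), against 7.69% of all promoters of the same length. It was in 6 of 36 core promoters with a summit (16.7%) and 10 of 31 without (32.3%), against 12.3% and 6.02% of all genes with and without a summit, so the order of these shares was the reverse in the core genes. Both sequences together were in 2 of 36 core promoters with a summit and in 0 of 31 without, against 254 of 3696 and 108 of 10272 over all genes. Core genes with TATCGA in the promoter had a summit at 17 of 22 (77.3%), against 57.4% of all such genes, and those without it at 19 of 45 (42.2%), against 14.6%. With GGTCACAC the count was 6 of 16 (37.5%), against 42.5%, and without it 30 of 51 (58.8%), against 25.1%.

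Examples of GGTCACAC, in capitals on either strand, are shown from core promoters that had no summit and, last, from one that had. They were chosen after the values were seen.
ATPsynC (chr3R:31219763-31219822, minus strand): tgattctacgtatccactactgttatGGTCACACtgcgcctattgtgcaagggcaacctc
RFeSP (chr2L:1614121-1614180, minus strand): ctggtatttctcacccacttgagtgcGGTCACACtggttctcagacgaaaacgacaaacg
COX5B (chr2L:6557786-6557845, plus strand): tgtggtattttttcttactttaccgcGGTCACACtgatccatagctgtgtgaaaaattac
ND-18 (chrX:19492392-19492451, plus strand): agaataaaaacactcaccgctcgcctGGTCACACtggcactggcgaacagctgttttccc
COX7B (chr3L:17425460-17425519, plus strand): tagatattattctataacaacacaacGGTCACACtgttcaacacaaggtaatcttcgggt
These 5 are on the strand of the gene and followed by TG. Of the first such match in each of the 16 core promoters, 11 were on the strand of the gene and 5 on the other, and 13 were followed by TG. The first base of the sequence lay 166 bp before the start of ATPsynC, 3 bp before that of ND-18 and 6, 12 and 9 bp after those of RFeSP, COX5B and COX7B. The COX7B summit lay 164 bp upstream of its start, away from this sequence.

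**Figure D5:**
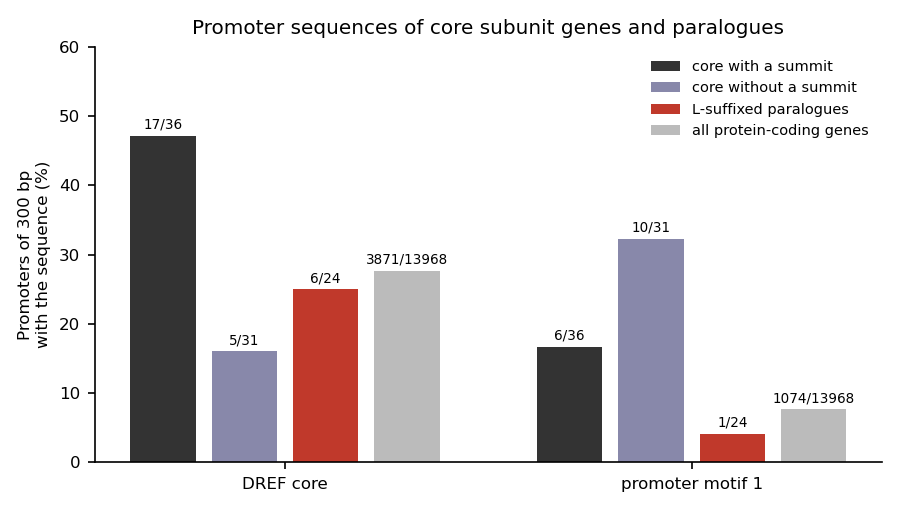
Share (%) of promoters of 300 bp that hold TATCGA (DREF core) or GGTCACAC (promoter motif 1), for core genes with a summit, core genes without, the L-suffixed paralogues and all protein-coding genes; the numbers over the bars are promoters with the sequence and promoters in the group. TATCGA stands highest at core genes with a summit (17 of 36) and GGTCACAC at core genes without (10 of 31).

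Sequences known from work on respiratory genes were present at few core summits. The nuclear respiratory gene element of Drosophila, A or G, TTA, C or T, A or G, TAA, was within 100 bp of 2 of 36 core summits (5.56%), against 1.59% of promoter summits. It was within 50 bp of 1 (2.78%, against 0.486%) and within 200 bp of 6 (16.7%, against 4.37%). It was in 4 of 67 core promoters (5.97%), against 3.23% of all. The 4 promoters were those of ND-42, ND-49, ND-MNLL and NdufV3, all of complex I. TCAAGGTCA, a site of the oestrogen-related receptor, and GCGCATGC, part of the vertebrate NRF-1 palindrome, were at 0 of 36 core summits, against 0.0324% and 0.713% of promoter summits.

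Other genes of the pathway, from lists that include neighbours of the chain, had summits as well, and their counts stand against 26.5% of all protein-coding genes. Of 5 subunit genes with other symbols 4 had one: levy at 598.8, closer to the start of wmd, blw, the alpha subunit of complex V, at 197.4, cype at 180.3 and ox, a complex III subunit, at 88.36, closer to the start of Dgkepsilon. Of 5 carriers 3 had one. Cyt-c-p, the general cytochrome c, had 104.1, whereas Cyt-c-d, the testis form, had no summit and a ranked entry of 12.92. The adenine nucleotide carriers sesB and Ant2 are neighbours and shared a summit of 186.9, closer to sesB. Of 7 assembly genes 4 had one, among them sloth1 and sloth2, which are read from the same transcript and share 249.6.

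The tricarboxylic acid cycle, which feeds electrons to complexes I and II, had summits at 8 of 11 matched genes (72.7%), against 26.5% of all genes. Scsalpha1, a subunit of succinyl-CoA ligase, had 630.2 (411.9 and 210.8 in the replicates), above any respiratory subunit here, and Idh3b, a subunit of isocitrate dehydrogenase, had 464.7 (256.9 and 204.4). Ogdh had 352.0, ScsbetaA 213.5 and ScsbetaG 91.13. Mdh2 had 176.9, closer to the start of CG7168, Idh3a had 109.4, closer to that of CoRest, and Fum1 shared the 280.7 that lay closer to ND-ASHI. The citrate synthase gene kdn, the aconitase gene mAcon1 and Idh3g had none. Of 7 regulators of mitochondrial genes 4 had one, against the same 26.5%: ewg, the counterpart of NRF-1, at 326.8, Dref at 170.6, mtTFB2 at 152.3, closer to the start of CG11722, and ERR at 118.0. Ets97D, srl, the counterpart of PGC-1, and TFAM had none.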

How the data were processed

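Peak lists from 2 biological replicates of 1 group were used on dm6, per the labels. Each entry holds a deposited score and a deposited signal whose scale is not stated, and the ranked lists add the −log10 of a global irreproducible discovery rate (IDR) that the authors computed, which asks whether a peak keeps its rank between lists. The lowest score in the conservative set was 830 and the largest IDR 0.01. Aligner and peak caller: not given in the sources used here. Read depth is unknown. Signals were not compared between lists except as replicate values of the same peak.

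Gene models were from Ensembl release 115 and sequence and synonyms from RefSeq, both on Release 6 of the genome, which dm6 also is. Every peak ended within these chromosomes. Coordinates are 1-based. Python 3.11.15 with pandas 2.3.3, numpy 2.4.6 and scipy 1.17.1 was used. A summit counted for every gene with a start within 500 bp. Both strands were searched for motifs, up to 100 bp from summits and in 300-bp promoters, and the procedures were tested on simulated summits and motifs. No p-values were computed. The members, lists and motifs were chosen with earlier results of these data known. Named members are the 4 strongest and the weakest of each complex, the paralogues whose partner has a summit, and those whose call changes between sets; others were named after their values were seen. Alternatives were other peak sets, thresholds, windows and ways to give a summit to a gene. No columns of other samples were used.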

Additional observations from a re-analysis of the deposited data

How the results depend on the processing

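The count of core genes with a summit, 36, was also the count over all members. It ranged from 22 to 30 with 1 replicate's own set (left-out replicates 1 and 2), against 17.6% and 24.5% of all genes, and was 23 both at an IDR of at most 0.001 (34.3% of core genes, against 17.4% of all) and for entries at or above the median signal (34.3%, against 17.0%). These settings keep fewer entries in all. Without replicate 1, and at either stricter threshold, SdhB, SdhC and SdhD lost their summits, and at both thresholds SdhA did too. The pooled set gave 35 (52.2%, against 26.6% of all genes), of which 31 were shared. It lost COX5A, ND-ACP, ND-B18, SdhB and UQCR-C2 and gained ND-18, ND-B14.7, ND-B22 and UQCR-Q. Windows of 250 and 1000 bp gave 34 (50.7%, against 23.7%) and 38 (56.7%, against 28.8%) core genes. Overlap of the peak with the start region gave 38 (56.7%, against 27.6%), the last 2 both adding ATPsynD and NdufV3.

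The paralogues had 0 summits under every setting, 0 to 0 when a replicate was left out, except within 1000 bp, where SdhBL made 1: its summit of 186.1 lay 754 bp away and 56 bp from the start of Flacc. The median signal of 137.3 was 191.7 at the stricter IDR and 191.7 above the median signal, since both remove weak entries, and it kept within 120.6 to 139.5 otherwise. TATCGA was at 15 (41.7%, against 40.2% of promoter summits) and 23 (63.9%, against 63.2%) of the 36 summits in windows of 50 and 200 bp. It was in 28 of 92 promoters (30.4%, against 27.7% of all). No paired analysis was possible because both replicates belong to 1 group. A planned comparison of protein identity between paralogues and partners was not run.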

Other observations

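The letter case of the symbols sets who is a member. The genes Cox10, Cox11 and Cox17, assembly factors of complex IV spelled with lower-case letters, fall outside the rule, and they were looked up after the symbols were seen. Cox17, a copper chaperone, had a summit of 194.2 (140.1 and 57.24 in the replicates) and Cox11 one of 80.58 (39.1 and 39.4), whereas Cox10 had neither a summit nor a ranked entry.

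By chromosome arm, core genes had a summit at 8 of 14 on X, against 30.7% of all genes there, and at 5 of 13 on 2L, against 23.7%. On 2R it was 6 of 11, against 27.2%, on 3L 8 of 14, against 25.7%, and on 3R 9 of 13, against 26.5%. On chromosome 4 it was 0 of 2, against 8 of 80 genes.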
